A study of Homo sapiens with 4 samples.

Results

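The USP genes were described in the m6A peak lists of OE-19 cells. Members were the protein-coding genes on chromosomes 1 to 22 of the GENCODE annotation (build hg38) whose symbol is USP followed by digits and optional letters, with the USP17L copies left out. This gave 46 of 19111 protein-coding genes. One of them, USP6NL, carries the name but encodes a GTPase-activating protein for RAB proteins and is no deubiquitinase. The symbol rule itself uses no measured value.

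OE-19 is a cell line from an adenocarcinoma of the esophagogastric junction, with no treatment given in the labels. Samples labelled meRIP were precipitated with an anti-m6A antibody in replicates 1 and 2, and each had its own list of peaks, places where the precipitated RNA piled up above background. The 2 input samples of the same cells were not analysed here. The study therefore gave 1 group of 2 libraries from 1 cell line, with no treatment and no comparison between groups, and nothing in the labels stated that the replicates came from separate cultures.

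USP enzymes form the largest family of deubiquitinases. They are cysteine proteases that cut ubiquitin from proteins and so set how long a protein lasts, where it goes and what it binds. N6-methyladenosine (m6A) is laid down on mRNA by the METTL3 complex, mostly at adenines in a short motif with GGAC as a common form. In human mRNA it is known to gather near stop codons and in long internal exons.

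The sequences below lay under strong peaks of USP genes that were found in both replicates. They are genome sequence and not reads of the precipitated RNA. The first 6 are windows of 50 nt to each side of the replicate 1 summit, the highest point of the peak, each inside the coding sequence (CDS) of 1 exon, and the last 2 are 21-nt sites around the GGAC nearest the summit in USP2 (3′ UTR) and USP38 (CDS of exon 1). All were read from the hg38 genome on the strand of the gene, 5′ to 3′, and capitals mark GGAC. The windows lay at chr16:23069193-23069293 (minus strand, USP31), chr7:6154121-6154221 (plus, USP42), chr17:9728354-9728454 (plus, USP43), chr4:119292480-119292580 (plus, USP53), chr11:78209607-78209707 (plus, USP35) and chr11:11942596-11942696 (plus, USP47). The sites lay at chr11:119356428-119356448 (minus, USP2) and chr4:143185754-143185774 (plus, USP38).
USP31: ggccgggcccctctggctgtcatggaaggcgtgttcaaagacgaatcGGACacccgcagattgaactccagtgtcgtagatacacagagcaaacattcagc
USP42: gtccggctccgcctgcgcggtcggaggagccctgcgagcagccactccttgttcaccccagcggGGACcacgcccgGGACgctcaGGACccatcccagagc
USP43: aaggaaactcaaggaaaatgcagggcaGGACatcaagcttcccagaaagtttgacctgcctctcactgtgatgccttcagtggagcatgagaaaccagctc
USP53: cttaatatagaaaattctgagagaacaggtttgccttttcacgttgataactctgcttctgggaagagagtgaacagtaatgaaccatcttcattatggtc
USP35: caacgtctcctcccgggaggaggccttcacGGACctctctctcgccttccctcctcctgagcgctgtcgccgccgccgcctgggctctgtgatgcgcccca
USP47: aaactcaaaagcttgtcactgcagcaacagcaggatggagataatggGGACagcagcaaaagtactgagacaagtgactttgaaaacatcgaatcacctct
USP2: caccgcctGGACgcccgcgcc
USP38: gccatcctGGACtacattcac
In USP31 and USP47 the adenine of the motif lay 1 nt from the summit. The USP42 window held 3 copies of GGAC within 73.3% G and C, whereas the USP53 window held none and had 37.6% G and C.

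The first question was how many USP genes carried m6A peaks. Replicate 1 had an exonic summit in 33 of the 46 (71.7%, with a 95% Wilson interval of 57.5 to 82.7), and replicate 2 in 27 of 46 (58.7%, 44.3 to 71.7). Among all protein-coding genes on these chromosomes the share was 43.1% in replicate 1, 34.8% in replicate 2 and 34.0% in both. The 27 genes of replicate 2 were all among the 33 of replicate 1, so 27 genes had summits in both lists, 6 in replicate 1 alone and 0 in replicate 2 alone. Intervals cover counting error only, and members are not replicates of one another, so these shares were not tested.

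USP genes are long, so their shares were also set beside those of genes of like exonic length. The median annotated exonic length of USP genes was 7439 nt against 4461 nt for the other protein-coding genes. Their median CDS was 2857.5 nt against 1296 nt. Among other genes of like exonic length, 44.3% had a summit in both lists, which corresponds to 20.4 of 46 genes, where 27 were observed. In replicate 1 the like-length share was 54.2% against 71.7% for the USP genes, and in replicate 2 it was 45.4% against 58.7%. The like-length share lay below the members' interval in replicate 1, inside it in replicate 2, and at its lower edge of 44.3% for both lists. CDS length and RNA level were not matched, and what lies behind the remaining gap was not tested.

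By length class, the gap was widest among the longest genes. Of the 15 USP genes of 3718 to 5694 nt, 7 had a summit in both lists (46.7%, 24.8 to 69.9), beside 37.1% of other genes in that range. Of the 15 of 5731 to 9269 nt, 8 did (53.3%, 30.1 to 75.2), beside 45.9%. Of the 16 of 9280 to 20641 nt, 12 did (75.0%, 50.5 to 89.8), beside 49.9%. The intervals of the 3 classes overlapped.

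**Figure D1:**
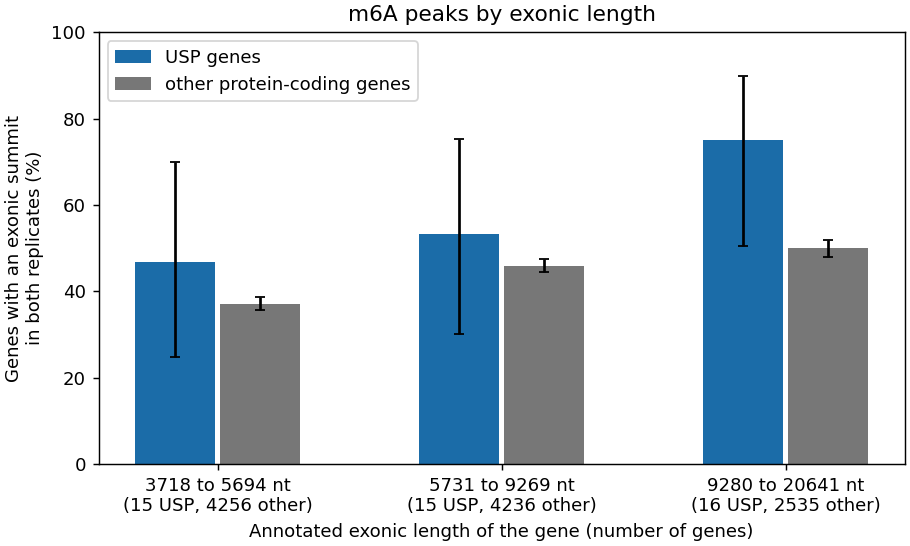
Percent of genes with an exonic summit in both replicates (vertical axis) in 3 classes of annotated exonic length (horizontal axis), for USP genes (blue) and other protein-coding genes (grey). Bars are shares and error bars 95% Wilson intervals. The USP share is 46.7%, 53.3% and 75.0%, and the share of other genes 37.1%, 45.9% and 49.9%.

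Where no other gene overlaps, a peak shows that RNA of the gene was present, whereas the lack of a peak cannot separate unmethylated RNA from RNA that was scarce or absent. Of 7 epithelial markers, CDH1 and CDX2 had summits in both lists and KRT8, KRT18, KRT19, EPCAM and ERBB2 had none. Of 4 mesenchymal or blood markers, COL1A1 had a summit in replicate 1 alone and VIM, PTPRC and PECAM1 had none. The lists hold 24607 and 19318 peaks with no read numbers, so the depth behind them is unknown.

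The 13 USP genes without an exonic summit in either list were USP6, USP13, USP14, USP18, USP19, USP28, USP29, USP33, USP37, USP39, USP44, USP48 and USP50. They were somewhat shorter, with a median exonic length of 5793 nt against 7861 nt for the 27 genes in both lists. Length did not separate them fully, since USP13 has 15296 nt of exons and USP6 11676 nt and neither had a peak. The 6 genes with a summit in replicate 1 alone were USP5, USP7, USP12, USP16, USP45 and USP46, each with 1 summit. Their fold enrichment, the ratio of precipitated signal to background given by the peak caller, ran from 2.16 in USP7 to 6.25 in USP16. Both lists were called at a q-value under 0.05.

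The genes were also grouped by what the enzymes act on, and the counts are read beside the 58.7% of the family and the 34.0% of all protein-coding genes with a summit in both lists. Among enzymes of DNA repair, 2 of 3 had summits in both lists. Among those of chromatin it was 4 of 6, and among those of signalling and trafficking 7 of 10. Among enzymes of the cell cycle and MYC it was 4 of 8, and among those of protein quality control and organelles 1 of 5. The interferon-induced USP18, which removes ISG15, and the splicing factor USP39 had none. A further 11 USP enzymes without a group had summits in both lists in 8 cases, as did USP6NL. Groups of this size do not show a share apart from that of the family.

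In the cell cycle and MYC group the strongest peaks were on USP2 and USP42. USP2, which acts on MDM2 and cyclin D1, had 2 summits in each list. Its stronger peak, in the 3′ UTR 380 nt after the stop codon (replicate 1 summit), was enriched 14.6-fold in replicate 1 and 10.9-fold in replicate 2. Its second peak, in the CDS of exon 2, had 5.59 and 6.32. The 3′ UTR peak was thus the higher of the pair in both lists.

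USP42 had 3 summits in replicate 1 and 2 in replicate 2. Over the 1440-nt exon 15 its fold enrichment was 12.5 and 9.73. A second pair lay within 200 nt of the stop codon in exon 16 and had 15.4 and 4.67. That value of 15.4 was the highest of any USP summit in replicate 1, and the log2 ratio of 1.73 between the replicates was the widest of all USP pairs. Another summit, of 5.85 over the 720-nt exon 13, was listed in replicate 1 alone.

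USP36, the nucleolar relative of USP42 that stabilizes MYC, had 5 summits in replicate 1 and 3 in replicate 2. The pair over exon 16 (chr17:78803524-78804020 in replicate 1) had 9.51 and 6.88, the pair in exon 14 had 6.96 and 2.59, and the pair in the 3′ UTR had 7.36 and 4.21. All 3 were higher in replicate 1. USP10, which binds the stress granule protein G3BP1, had a single pair over the 1041-nt exon 5 with 7.80 and 7.34. This peak had the highest −log10 q of any USP peak in each list, 71.1 and 80.3. USP7, which stabilizes MDM2, had only its summit of 2.16 in replicate 1, in the stop codon window.

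In DNA repair, USP47, which acts on DNA polymerase beta, had the strongest peaks. Over the 778-nt exon 21 its fold enrichment was 9.49 and 7.40, and near the stop codon 6.91 and 7.60. The summits of both pairs lay within 12 bp of each other. USP1, which removes ubiquitin from FANCD2 and PCNA with its partner WDR48, had a CDS pair of 5.07 and 5.24 over the 692-nt exon 6 and a 5′ UTR pair of 3.42 and 2.72. USP45, which acts on the repair nuclease subunit ERCC1, had 1 summit of 4.21 in replicate 1 alone.

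All 6 chromatin enzymes had a summit in replicate 1, where 71.7% of the family and 43.1% of all protein-coding genes had one. USP21, which removes ubiquitin from histone H2A, had 4.87 and 4.32 over the 621-nt exon 3. USP22, the deubiquitinase of the SAGA complex, had 4.11 and 3.20 in the 3′ UTR. USP3, another histone deubiquitinase, had 3.91 and 4.27 in the 3′ UTR. These values lay below the medians of all USP summits, 5.96 in replicate 1 and 5.16 in replicate 2. USP49, which acts on histone H2B, had 1 summit in replicate 1 and 3 in replicate 2, and its only pair, over the 1384-nt exon 3, had 6.04 and 2.24 with summits 270 bp apart. Its strongest summit, of 7.01 in the 5′ UTR, was listed in replicate 2 alone and lay above the replicate 2 median. USP16 and USP12 had a summit in replicate 1 alone, of 6.25 and 3.48.

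Among enzymes of signalling and trafficking, USP32 and USP53 stood highest. USP32, a membrane-anchored enzyme, had 4 and 3 summits in the lists, and its strongest pair lay on the stop codon (chr17:60179179-60179455 in replicate 1), with 14.5 and 7.37. The other USP32 pairs fell in the last part of the CDS, with 6.95 and 4.54 in exon 32 and 3.52 and 6.07 in exon 31. USP53, a tight junction protein, had 8.32 and 12.3 in the CDS of its last exon. It was one of the few strong peaks that were higher in replicate 2.

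USP34, which acts on axin in the Wnt pathway, had 3 pairs. The pair near the stop codon had 10.4 and 4.83, that over the 611-nt exon 15 had 6.79 and 6.40, and that over the 635-nt exon 68 had 2.32 and 3.42. The last was the weakest of all 50 USP pairs by its mean. USP4 and its relative USP15, which act on TGF-beta receptors, were both marked near the stop codon, USP4 with 8.83 and 6.38 and USP15 with 4.40 and 8.06. The 2 genes differed in opposite directions between the replicates, and the log2 ratio of −0.87 in USP15 was the lowest of all USP pairs. USP20, a von Hippel-Lindau interacting enzyme, had 9.88 and 4.85 in the 3′ UTR and 5.95 and 3.55 in the CDS. USP8, which acts on receptors at endosomes, had 6.90 and 2.10 over the 585-nt exon 11, a log2 ratio of 1.72.

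In protein quality control and organelles only USP30, the mitochondrial outer membrane enzyme that opposes mitophagy, had summits in both lists. Its 3′ UTR pair had 8.80 and 5.57 and its pair at the stop codon 7.25 and 5.92. USP5, which takes apart unanchored ubiquitin chains, had 3.14 in the 3′ UTR in replicate 1 alone. USP14 on the proteasome, USP19 in the endoplasmic reticulum and USP13 had no exonic summit.

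Among the 11 other USP enzymes, USP31 had the strongest pair of the family, with 15.0 and 12.3 in the CDS part of its 8211-nt last exon. Its relative USP43 had 8.66 and 13.5 in the CDS of its last exon, with summits 1 bp apart, and the value of 13.5 was the highest of any USP summit in replicate 2. USP43 also had a summit of 12.3 in replicate 1 that was not listed in replicate 2. USP24, a very large enzyme, had 8.44 and 12.9 just after the stop codon (chr1:55068663-55069074 in replicate 1), in the stop codon window in replicate 1 and 219 nt past the stop codon in replicate 2. USP24 had 4 summits in replicate 1 and 2 in replicate 2.

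USP25 had 10.7 and 7.49 at the stop codon (chr21:15878414-15878751 in replicate 1). USP35 had 12.6 and 5.60 over the 1297-nt exon 10, and its relative USP38 had 8.39 and 7.96 in the CDS of exon 1 as the strongest of 3 pairs. USP38 was the member with the most summits in replicate 2 after USP54, 4 against 3 in replicate 1. USP40 had 3 pairs, all in its last exon, with 5.84 and 7.92 near the stop codon, 6.31 and 5.07 at 1385 nt after it and 5.64 and 2.67 between them. USP54 had 5 summits in each list, and all 5 were paired, with values from 2.85 to 6.65 in replicate 1 and from 3.01 to 5.25 in replicate 2. It had the most pairs of any USP gene but none of the 12 strongest. USP6NL had 5.92 and 6.45 in the CDS of its last exon.

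**Figure D2:**
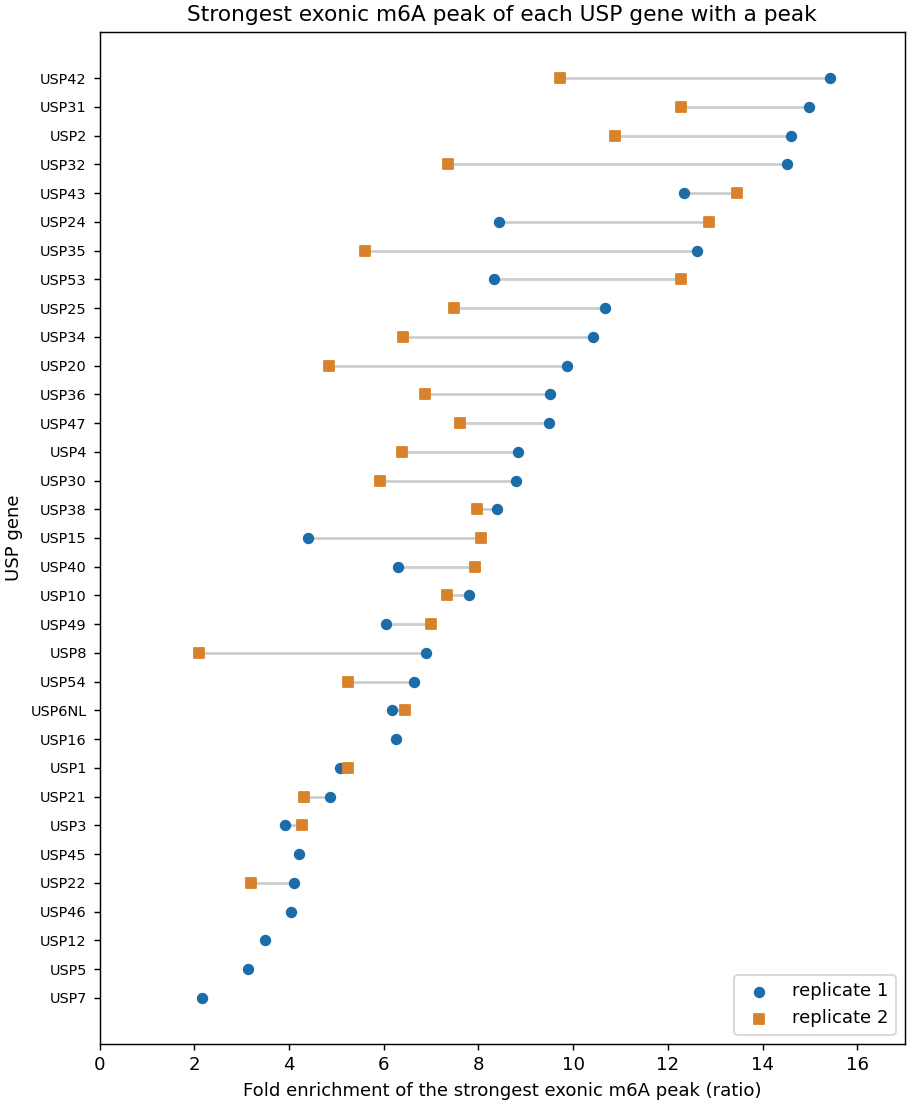
Fold enrichment (horizontal axis, ratio) of the strongest exonic peak of each USP gene with a peak (vertical axis), in replicate 1 (blue circles) and replicate 2 (orange squares). A grey line joins the points of a gene, which need not be the same peak in both lists, as in USP42 and USP43. The highest values are 15.4 in USP42 in replicate 1 and 13.5 in USP43 in replicate 2, and 6 genes have a point in replicate 1 alone.

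Peaks were also compared between close relatives within the family. Of 17 pairs of related genes, both genes had summits in both lists in 7 pairs, 1 of the genes did in 7, and neither did in 3. With 58.7% of the family in both lists, this split is not read as a likeness or a difference between relatives. USP25 had a peak and USP28 none, USP20 a peak and USP33 none, and USP49 a peak and its relative USP44 none. USP32 had 4 and 3 summits, whereas USP6, a hominoid-specific gene made partly from USP32, had none. USP6 and USP32 share sequence, and how reads fitting both were treated is not given in the sources used here, so this difference is uncertain. RNA levels were not measured in the lists, so whether the relative without a peak was expressed was not tested.

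The second question was where along the transcripts the summits lay. The lists held 69 exonic summits of USP genes in replicate 1 and 54 in replicate 2, of which 67 and 54 lay on the transcript with the longest CDS. In the CDS outside the stop codon window lay 52.2% (40.5 to 63.7) of summits in replicate 1 and 50% (37.1 to 62.9) in replicate 2. Within 200 nt to each side of the stop codon, called its window here, lay 22.4% (14.1 to 33.7) and 22.2% (13.2 to 34.9), while this window makes up 7.12% and 6.89% of the bases of these transcripts. The rest of the 3′ UTR held 19.4% and 20.4% of summits on 31.7% and 33.2% of bases, and the rest of the 5′ UTR 5.97% and 7.41%. Summits were thus denser in the stop codon window than their share of bases, and sparser in the 3′ UTR beyond it.

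For the other protein-coding genes 24.5% and 27.2% of summits lay in this window, on 11.3% and 10.7% of bases, and both values lay within the intervals of the USP genes. USP4, USP15, USP25, USP30 and USP32 each had a pair with both summits within 47 nt of the stop codon. USP30 and USP32 also had pairs elsewhere, in the 3′ UTR and the CDS. The plot of summits along the transcripts shows these genes beside those marked only in the CDS, such as USP8, USP10 and USP21.

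**Figure D3:**
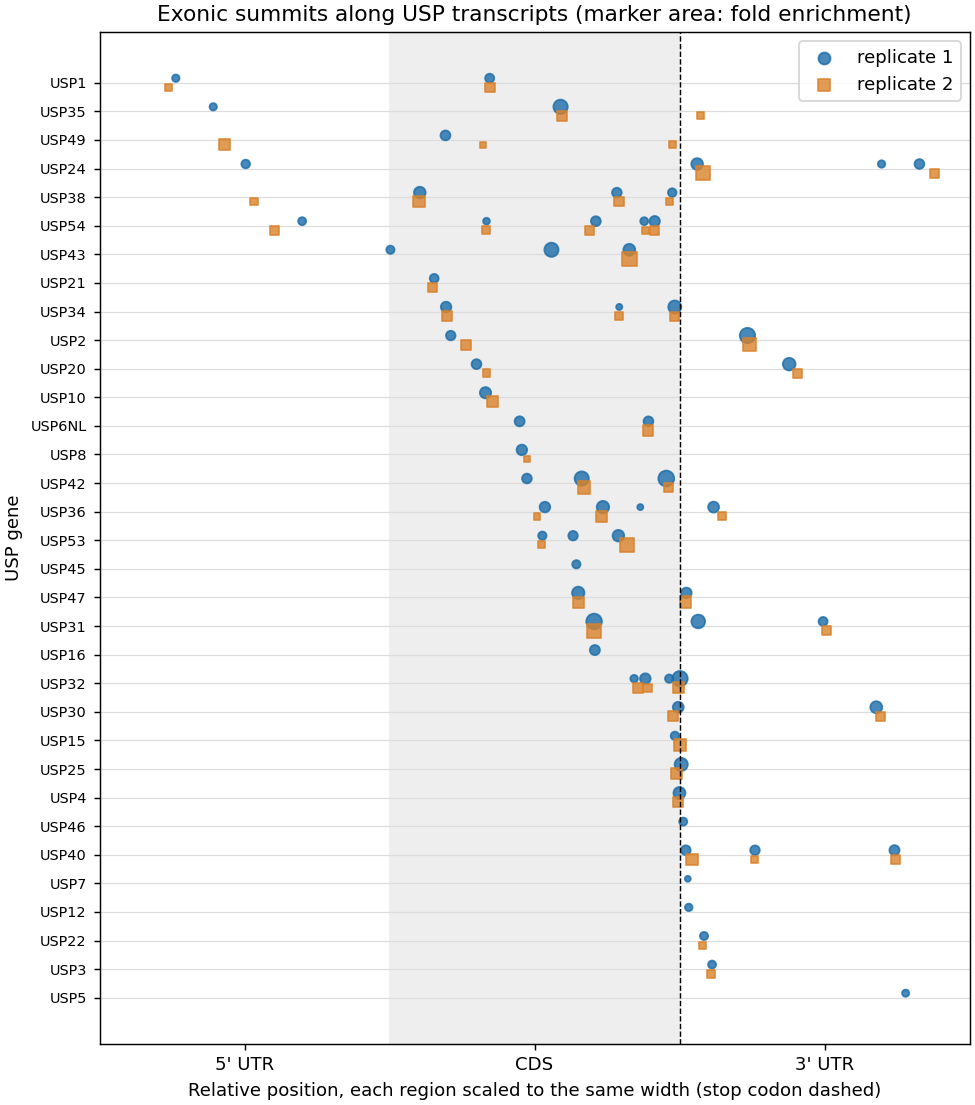
Position of each exonic summit (horizontal axis, 5′ UTR, CDS and 3′ UTR each scaled to the same width, stop codon dashed) in the USP genes with a summit (vertical axis), for replicate 1 (blue circles) and replicate 2 (orange squares), with marker area proportional to fold enrichment. The CDS outside the stop codon window holds 52.2% and 50% of summits, and the summits of the 2 replicates mostly lie side by side.

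Among internal exons, most summits lay in long ones. USP genes are cut into many short exons, with a median of 18.5 exons per transcript against 8 for other genes and a median internal exon of 119 nt. Internal exons that carried a summit had a median length of 635 nt in both lists. For other protein-coding genes it was 418 nt in replicate 1 and 686 nt in replicate 2. Only 30 of 867 internal exons of USP genes (3.46%) were 400 nt or longer, and they made up 18.4% of internal-exon bases. They held 23 of the 31 internal-exon summits of replicate 1 (74.2%, 56.8 to 86.3) and 19 of the 23 of replicate 2 (82.6%, 62.9 to 93.0). For other genes the shares were 51.3% and 75.1%. The limit of 400 nt was set after the lists had been examined.

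Counted by exon, 19 of the 30 long internal exons had a summit in both lists (63.3%, 45.5 to 78.1), against 4 of the 837 shorter ones (0.478%, 0.186 to 1.22). The last exon, the other long exon of most genes, had one in 20 of 46 genes. Last exons held 46.3% and 50% of USP summits in replicates 1 and 2, against 50.2% and 59.2% for other protein-coding genes. Within the genes that had a summit in both lists, a summit in both lists was found in 1 of 488 exons under 200 nt, 3 of 40 from there to under 400 nt, 5 of 6 from there to under 600 nt and 14 of 17 of 600 nt or more. The other protein-coding genes had 0.532%, 5.66%, 57.7% and 86.1% in these 4 classes. Choosing genes by their summits raises these shares. Without that choice, the classes from 400 nt on had 5 of 9 and 14 of 21 USP exons with a summit in both lists. Among all other protein-coding genes it was 31.6% and 54.6%. In both sets of genes the classes from 400 nt on lay far above the shorter ones, and the few USP exons of the top classes do not allow these to be ranked.

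**Figure D4:**
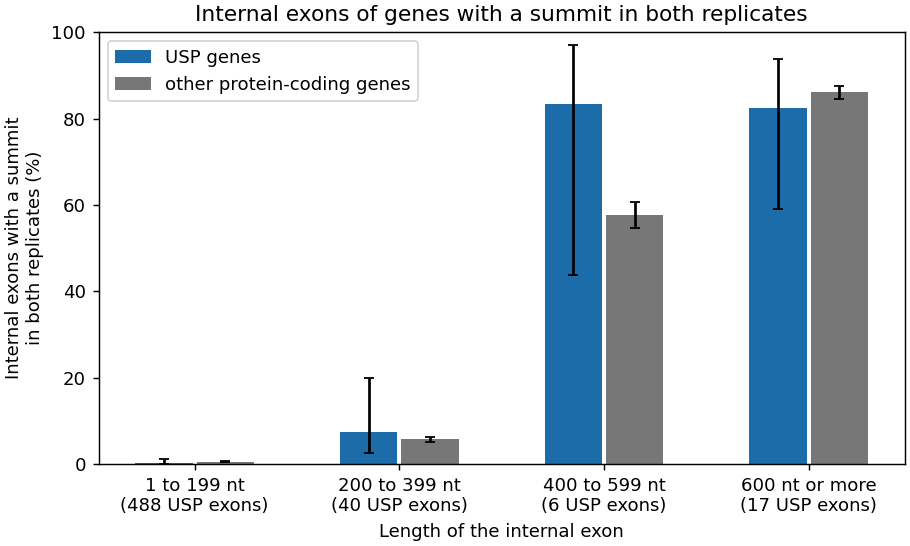
Percent of internal exons with a summit in both replicates (vertical axis) by exon length (horizontal axis, number of USP exons in brackets), in genes with a summit in both replicates, for USP genes (blue) and other protein-coding genes (grey). Error bars are 95% Wilson intervals. Choosing genes by their summits raises the shares. Under 400 nt, 4 USP exons carried a summit in both lists, and from 400 nt on it was 5 of 6 and 14 of 17.

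The long internal exons with a summit in both lists included exon 15 of USP42 (1440 nt), exon 3 of USP49 (1384 nt), exon 20 of USP54 (1373 nt), exon 9 of USP38 (1363 nt), exon 10 of USP35 (1297 nt) and exon 5 of USP10 (1041 nt). All but exon 2 of USP54, which lies in the 5′ UTR, were coding for 94.97% or more of their length. Those with a summit in replicate 1 alone were exon 15 of USP16, exon 13 of USP42 and exon 14 of USP45. Those with none were 3 exons of USP6, exon 2 of USP44 (1498 nt), exon 11 of USP33, exon 3 of USP34, exon 2 of USP35 and exon 5 of USP53. Of these 8, 5 belonged to USP6, USP33 and USP44, which had no exonic summit anywhere.

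The share of genes with a summit in both lists was higher with such an exon than without. The length limit came after the lists had been examined and exonic length was not matched, so this was not tested. Of the 21 USP genes with a long internal exon, 16 had a summit in both lists (76.2%, 54.9 to 89.4), against 11 of 25 without one (44%, 26.7 to 62.9), at median exonic lengths of 8105 and 7328 nt. For other protein-coding genes the shares were 57.5% and 28.4%, at 6534 and 4024 nt. The intervals of the USP genes with and without a long internal exon overlapped.

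The next question was how well the lists repeated each other on the USP genes. Of the 69 exonic peaks in replicate 1, 51 overlapped a peak of replicate 2 (73.9%, 62.5 to 82.8), and of the 54 in replicate 2, 51 overlapped a peak of replicate 1 (94.4%, 84.9 to 98.1). The other protein-coding genes had 60.5% and 95.9%. Shared USP peaks of replicate 1 had a median fold enrichment of 6.79 (quartiles 5.05 and 8.81), and the 18 not shared had 4.25 (3.39 and 5.94). Peaks of replicate 1 that were not listed in replicate 2 were thus mostly weak, with the 12.3 of USP43 as a high exception.

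Over all exonic summits, the USP genes had a median fold enrichment of 5.96 (quartiles 4.29 and 8.39) in replicate 1 and 5.16 (3.70 and 7.25) in replicate 2. The other protein-coding genes had 5.18 and 4.69, which lay between the quartiles of the USP genes. The lowest and highest USP values were 2.16 and 15.4 in replicate 1, and 2.10 and 13.5 in replicate 2.

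In all, 50 pairs of peaks were each other's largest overlap. Their summits lay a median of 23 bp apart, 35 of 50 lay within 50 bp, and 49 of 50 fell in the same region of the transcript, with the USP24 pair at the edge of the stop codon window as the exception. Pairs of other protein-coding genes were much alike, with a median of 26 bp, 69.5% within 50 bp and 93.7% in the same region. Fold enrichment was higher in replicate 1 in 36 of 50 pairs (72.0%, 58.3 to 82.5) with a median log2 ratio of 0.32 (quartiles −0.10 and 0.60). For other genes it was higher in 80.7% of pairs, with a median log2 ratio of 0.44. The tilt towards replicate 1 was thus present in both sets of genes. Among the 12 strongest genes, USP24, USP43 and USP53 went the other way in their best pair.

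**Figure D5:**
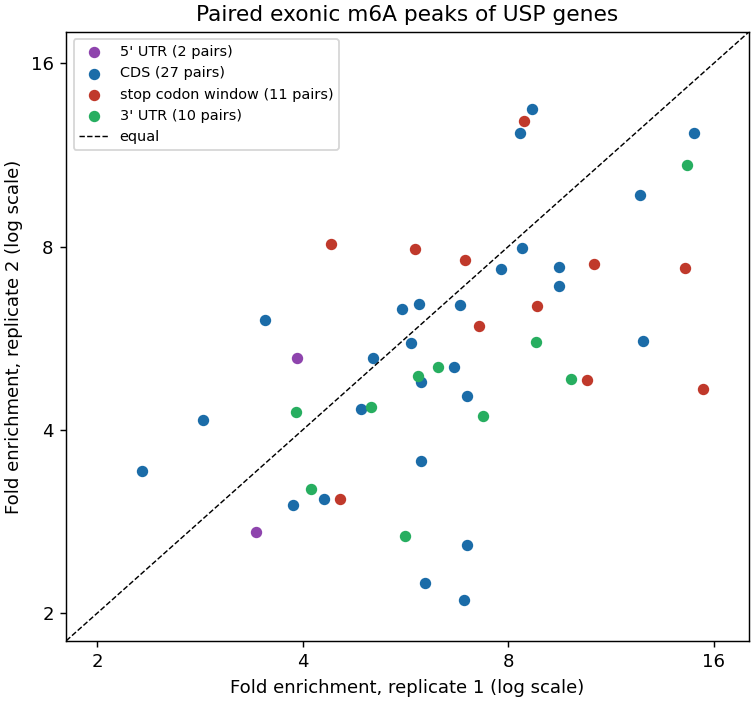
Fold enrichment of the 50 paired exonic peaks of USP genes in replicate 1 (horizontal axis, log scale) and replicate 2 (vertical axis, log scale), coloured by region, with the dashed line marking equal values. Of the pairs, 36 lie below the line, that is, higher in replicate 1.

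GGAC was read within 50 nt of each summit, on the strand of the gene. It was present in 39 of 69 windows in replicate 1 (56.5%, 44.8 to 67.6) and in 25 of 54 in replicate 2 (46.3%, 33.7 to 59.4). Other protein-coding genes had it in 49.9% and 51.8%. Of all windows of this size centred on exonic bases of the USP genes, 23% held it. The reverse complement, GTCC, was present in 24.6% and 29.6% of the summit windows, near the 22.3% of all USP windows. GGACT, a longer form that also counts as GGAC, was present in 18.8% and 13% of summit windows against 7.67% of all USP windows.

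The motif adenine lay within 10 nt of the summit for 12 of 69 summits in replicate 1 and 10 of 54 in replicate 2. No share of other genes is given for this distance, so these counts are not read as a trait of the USP genes. Of the 50 pairs, 22 had GGAC in both windows, 9 in 1 and 19 in neither, and the strong USP53 pair whose replicate 1 sequence is printed above has none in that window. The windows of a pair mostly overlap, so this split does not measure how well the lists repeat each other. Presence of the letters is a description and does not mark a methylated base.

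Some summits lay where exons of another gene overlap, and the lists hold no strand. This was so for 5 of 69 and 6 of 54 summits. They were the exon 2 pair of USP2 (USP2-AS1), the pair of USP3 (USP3-AS1), the stop codon pairs of USP34 (AHSA2P) and USP47 (DKK3), and the pair and 1 further summit of USP49 (an overlapping gene with no symbol). For these the peak could belong to either gene, and without them 25 USP genes had a summit in both lists.

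Outside the USP family, genes of other deubiquitinase families or folds on these chromosomes were also counted. Summits in both lists were found in 19 of 39 (48.7%), beside 34.0% of all protein-coding genes. The genes were listed by family or fold, and not every one encodes an active deubiquitinase. The OTU enzymes, another family of cysteine proteases, had 10 of 13. Among them were VCPIP1 with 15.8 and 16.2, OTUB2 with 16.8 and 12.4 and OTULIN with 13.8 and 12.4. These are the highest summits of each list and need not be the same peak. The JAMM domain genes, which include the proteasome subunit PSMD14, had 1 of 11 (MYSM1), and the UCH enzymes 0 of 4. The MINDY and ZUP1 enzymes had 4 of 5, the Josephin enzymes 2 of 3, and genes with a USP fold but no number 2 of 3 (PAN2 and USPL1, with CYLD in replicate 1 alone). The lists are small and the families differ in length, so these counts were not compared by a test.

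Of 11 cofactors and substrates of USP enzymes, 8 had summits in both lists, beside 34.0% of all protein-coding genes. The list's median exonic length was 7473 nt, and its share was not set against genes of like length. The values given here are again the highest summits of each list. WDR48, the activator of USP1, USP12 and USP46, had 14.1 and 10.1, and WDR20, which joins it on USP12 and USP46, had 14.5 and 10.0. MDM2, a substrate of USP2 and USP7, had 17 and 7.75. FANCD2 had no exonic summit, and PCNA and ISG15 had 1 each in replicate 1 alone. The fold enrichment of WDR48 lay above every listed value of the 3 enzymes it activates. Of these, USP12 and USP46 had a summit in replicate 1 alone, of 3.48 and 4.04. RNA levels and depth are unknown, so these values do not rank how strongly the RNAs were methylated.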

How the data were processed

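The 2 m6A IP samples of OE-19 cells, replicates 1 and 2 per the labels, were analysed as the peak lists the authors deposited. Methods of the study describe fragmented total RNA, the labels UV-fixed lysed cells. The study's methods name TopHat2 as aligner, whereas the submitters' processing notes name fastp, HISAT2 and MACS2 on hg38, versions not given. Peaks were called per sample, and the control library is not given in the sources used here. The authors' files give fold enrichment (a ratio), −log10 p and −log10 q values, a score that was not used, and the summit offset. All peaks had a q-value under 0.05, and no read counts were held, so depth is unknown.

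Summits were assigned to exons of all GENCODE 44 transcripts of a gene, without strand, and placed on the transcript with the longest CDS (Python 3.11.15, pysam 0.24.0, numpy 2.4.6, matplotlib 3.10.9). Chromosome names and lengths were checked against hg38. Peaks overlapping by 1 bp or more counted as shared, and a pair was 2 peaks with no larger overlap elsewhere. The share in genes of like exonic length was the mean, over members, of the share with a summit among other genes of the same of 20 length bins. Motifs were read within 50 nt of the summit. Shares carry 95% Wilson intervals. The functions that place and pair summits were checked on simulated peaks. With 1 group no test was run. Members and lists were chosen with earlier results of these data known. Named with values were the 12 genes with the strongest pairs, those with 4 or more summits in a list, those with the extreme ratios between replicates and related pairs, and every member is listed by name. Other genes described with values, the exon classes and 2 alternatives (bins of transcript length, and exons of the longest-CDS transcript alone) were chosen after seeing the data. One further gene was taken off the cofactor list and is not reported here.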

Additional observations from a re-analysis of the deposited data

Results flagged for a closer look

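Some summits lay within USP gene bodies but outside every USP exon, and so outside the exonic measurement. There were 6 such summits in replicate 1 and 6 in replicate 2. Of these, 4 in replicate 1 and 2 in replicate 2 lay in USP39, a gene with no exonic summit, but inside exons of C2orf68, which overlaps USP39 on the opposite strand, and they include the 2 in each list that overlapped a peak of the other list. The remaining 2 in replicate 1 (USP37 and USP43) and 4 in replicate 2 (USP4, USP45 and USP49) lay in no annotated exon, with fold enrichments of 3.51 to 5.12, and none was shared between the lists. No input list was analysed, so there was no control level to set beside them.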

How the results depend on the processing

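Of 107 recomputed values, 97 were classed as little changed and 10 as moved further. The class was loose for gene counts. USP genes with a summit in either list fell from 33 to 25 of 46 at fold enrichment of 5 or more, below the interval of 57.5 to 82.7%, yet were classed as little changed. So was the 33 of 46 by replicate 1 alone, just past the upper edge of 71.7% for 27 of 46. Keeping only peaks of fold enrichment 5 or more raised the median fold enrichment to 7.10 in replicate 1 and 7.01 in replicate 2, lowered the shared share of replicate 1 to 56.5%, raised GGAC in replicate 2 to 62.1% and lowered the share of like-length genes with a summit in both lists to 26.9%. Asking for an overlap of 50% of both peaks lowered the shared share of replicate 2 to 83.3%. A motif window of 25 nt gave GGAC at 40.6% and 25.9% of summits, and one of 100 nt gave 73.9% and 63.0%, as the wider window holds more bases. The number of USP genes with a summit in both lists ran from 21 (fold enrichment of 5 or more) to 27 with both lists in use, and was 33 by replicate 1 and 27 by replicate 2 alone. The members' share exceeded that of like-length genes by 12.8 (bins of transcript length, chosen after seeing the data) to 18.7 percentage points over the alternatives. No paired analysis was possible because the lists of 1 group were compared with no other group. Depth is unknown, so a gene without a peak cannot be read as unmethylated.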

Other observations

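The USP genes on chromosome X were not members. USP27X had 3 summits in each list, with fold enrichments reaching 12.4 in replicate 1 and 9.82 in replicate 2, near the strongest autosomal USP genes. These highest USP27X summits need not be the same peak in both lists. USP9X had 3 summits in replicate 1, the highest at 4.66, and 1 of 7.04 in replicate 2. USP11, USP26 and USP51 had none, nor had USP41, an annotated pseudogene related to USP18, or the USP17L copies. The USP17L copies are near-identical to each other, so their lack of peaks is uncertain.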
